A study of Mus musculus with 18 samples.

Results

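The expression of 8 genes was followed in natural killer T cells of the mouse thymus: Egr1, Egr2, Egr3, Nab1, Nab2, Nr4a1, Nr4a2 and Nr4a3. They encode transcription factors switched on by signals from the T cell receptor (TCR), and the corepressors of some of them. The genes were taken by symbol from a table of 23337 genes, all 8 were found once, and all 8 passed the filter that left 11118 genes for testing. RNA-seq had been done on 3 subsets of invariant NKT (iNKT) cells, which carry a TCR with an invariant alpha chain that recognises lipids on CD1d. Cells came from wild-type (WT) and SKG mice, both labelled as BALB/c. SKG is a point mutation in an SH2 domain of Zap70, the kinase that passes the TCR signal on, and the mutant protein signals weakly. Per the study's methods, SKG mice had been crossed to BALB/cJ, and both genotypes used were F3 animals of separately bred lines. The subsets had been sorted as CD1d tetramer-binding cells that were CD49a+ ICOS low for NKT1, ICOS high Sdc-1+ for NKT17, and ICOS high, CD4 high, TCR beta high and Sdc-1- for NKT2. This gave 6 groups of 3 libraries (18 libraries), with no treatment, and the age of the mice and the number of animals behind a library are not given in the sources used here. Nothing in the labels says that the libraries of a group came from separate animals, so p-values measure the spread between these libraries, which may be technical.

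As background, Egr1, Egr2 and Egr3 are zinc-finger transcription factors of the early growth response family, which bind GC-rich DNA. They are immediate early genes, transcribed within minutes of TCR engagement through the ERK pathway and serum response factor, while calcineurin and NFAT add to the induction of Egr2 and Egr3. Egr2 is known to be needed for iNKT cell development, where it acts on Zbtb16, the gene of the factor PLZF, and on Il2rb. Nab1 and Nab2 have no DNA-binding domain of their own. They bind the Egr proteins and mostly repress their activity, and Nab2 is itself an Egr target, so that the pair forms a feedback loop. Nr4a1 (Nur77), Nr4a2 (Nurr1) and Nr4a3 (Nor1) are orphan nuclear receptors that are likewise induced by the TCR, mainly through calcium, and reporters of Nr4a1 are widely used to read TCR signal strength.

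Regulatory sequence is shown for the 2 genes with the clearest differences between subsets and a promoter window free of annotated exons, Egr2 and Nr4a1. The 250 bases before the transcription start are given 5′ to 3′ in the direction of the gene, taken from RefSeq on build GRCm38.p6. Both were matched letter for letter to NCBIM37, where each was found once and touched no annotated exon. For Egr2, RefSeq gives 5 windows, and the one shown starts inside the Egr2 gene model of NCBIM37, between exons. Capitals mark matches, on either strand, to the CArG box bound by serum response factor, to the core TGACG of the cAMP response element, and to the Egr motif GCGTGGGCG or GCGGGGGCG. None of these matches overlap each other.
Egr2, chr10:67537619-67537868, plus strand: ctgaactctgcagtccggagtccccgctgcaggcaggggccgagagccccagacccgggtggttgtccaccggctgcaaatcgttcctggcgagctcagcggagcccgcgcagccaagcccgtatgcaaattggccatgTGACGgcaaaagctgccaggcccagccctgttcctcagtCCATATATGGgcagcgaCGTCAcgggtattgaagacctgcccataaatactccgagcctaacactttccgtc
Nr4a1, chr15:101266596-101266845, plus strand: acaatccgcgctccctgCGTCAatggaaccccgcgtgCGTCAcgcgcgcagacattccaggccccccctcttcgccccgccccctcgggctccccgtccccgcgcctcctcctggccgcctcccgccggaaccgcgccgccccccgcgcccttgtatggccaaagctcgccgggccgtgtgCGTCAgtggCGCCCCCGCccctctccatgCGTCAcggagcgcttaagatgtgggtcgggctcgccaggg
The Egr2 window shown held 1 CArG box, from 72 to 63 bases before the start, and 2 TGACG cores. Other Egr2 windows differed. The one from 67537316, also free of annotated exons, held a different CArG box (CCTTTTTTGG) and no TGACG core. The one from 67535249 held none of these motifs. The Nr4a1 window held 4 TGACG cores and 1 Egr motif, from 60 to 52 bases before the start, and no CArG box. A CArG box was in 1.47% of all 32851 promoter windows of this length, an Egr motif in 3.06%, a TGACG core in 17.8%, and 4 or more TGACG cores in 0.137%. RefSeq windows were used for 6 of the 8 genes. Nab1 had 3 Egr motifs, the first from 141 to 133 and the last from 38 to 30 bases before the start. Nab2 had no match to any of these motifs, and Nr4a2 and Nr4a3 had 4 TGACG cores each. A match says only that these letters are in the window, and binding was not measured here.

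The total count per library was 4391029 to 8895917, with 11657 to 13071 genes at 1 count or more. Levels are given as CPM, the share of a library's reads that fell in a gene, after TMM scaling of the library totals. The subset labels were checked against marker genes. The NKT2 markers include Icos (1109 CPM in WT NKT2) and the NKT17 markers Sdc1 (421 CPM in WT NKT17). Both encode proteins that the cells were sorted by, so those sums are in part fixed by the sort. The sum of 6 NKT1 markers, Tbx21 and Ifng among them, was 3948 to 5607 CPM in the NKT1 libraries and at most 424 CPM in the others. The sum of 6 NKT17 markers, Il23r and Ccr6 among them, was 2383 to 2483 CPM in NKT17 and at most 14.3 CPM elsewhere. Within NKT17, 1 of these markers was called higher and 2 lower in SKG than in WT. Ccr6 was at 12.0 ± 7.57 CPM in WT and 592 ± 26.4 CPM in SKG. Il23r was at 454 CPM in WT and 245 CPM in SKG, and Il1r1 at 467 and 233 CPM. The sum of 6 NKT2 markers was 1750 to 2761 CPM in NKT2, and the NKT17 libraries (1645 to 1847 CPM) overlapped that range, while NKT1 libraries had 505.1 to 712 CPM. The SKG mutation cannot be seen in counts per gene, and Zap70 itself was present in all libraries at 360 to 852 CPM. Its mean was lower in SKG in each subset, at 477 against 563 CPM in NKT1, 397 against 520 CPM in NKT2 and 527 against 789 CPM in NKT17. SKG and WT libraries overlapped for Zap70 in NKT1. They did not in NKT2 and NKT17, where 30.1% and 26.9% of all tested genes separated. Myeloid genes summed to 172 to 525 CPM in NKT1 through Fcer1g alone for the most part, with Csf1r, Cd68, Itgax and Cd14 below the filter, and B cell genes to 24.8 to 40.7 CPM in SKG NKT17, mostly Cd79b, with Cd79a, Ms4a1, Pax5 and Ebf1 below it. The 6 markers of CD4+ CD8+ (double-positive) thymocytes summed to 14.3 to 47.5 CPM in SKG NKT17, mostly Cd8b1, and to at most 13.8 CPM elsewhere. The 6 markers of stage 0 (CD24 high) iNKT cells summed to 172 to 278 CPM in SKG NKT2 and 71.8 to 134 CPM in WT NKT2. Most of this was Ccr9. In NKT1 the stage 0 sum was lower in SKG (182 to 247 CPM) than in WT (341 to 442 CPM), mostly Itm2a. The part of these genes in the results was not tested.

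The sample titles carry a token (7_5, 7_10, 7_11 or 7_21) whose meaning is not given in the sources used here, and immediate early genes moved with it. Libraries of token 7_11 had the highest Fos and the highest Jun of their group in 6 of 6 groups, and the highest summed level of a list of 30 immediate early genes in 6 of 6. Fos and Jun encode the AP-1 factors that are induced together with Egr1. Among the members, the 7_11 library was the highest of its group in 5 of 6 groups for Nr4a2, in 4 of 6 for Egr1 and for Nr4a3, and in 3 of 6 for Nr4a1 and for Nab1. It was the highest in 1 of 6 groups for Egr2 and in 0 of 6 for Egr3 and Nab2. Tokens 7_10 and 7_11 occur in both genotypes, 7_5 only in WT and 7_21 only in SKG, so the latter pair cannot be told apart from the genotype. Values of SKG and WT within a token, and fits without the 6 libraries of token 7_11, are therefore given beside the results they touch. What the token stands for and its part in the results were not tested.

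**Figure D1:**
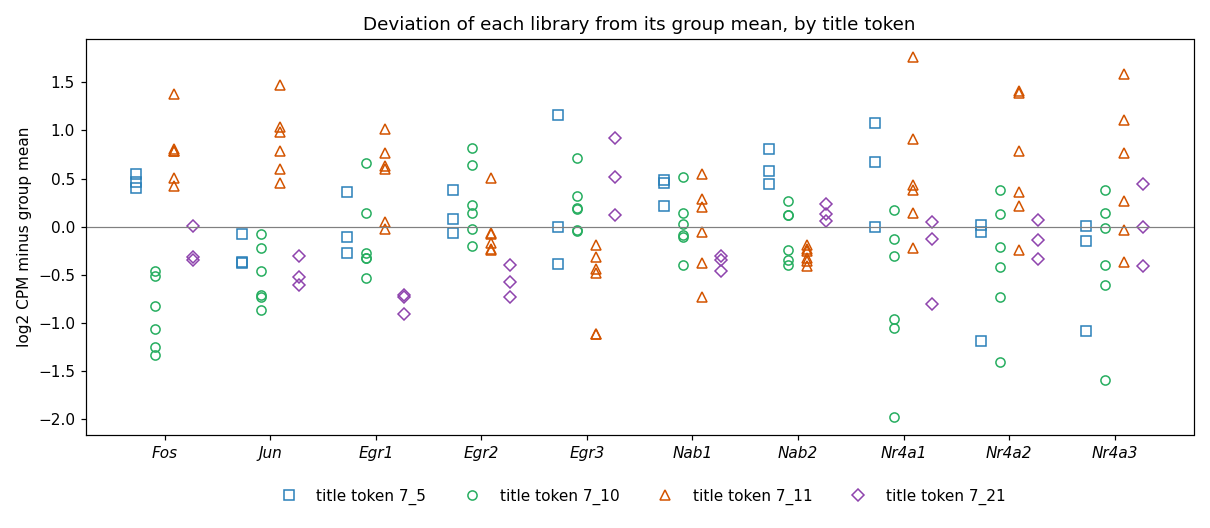
Each point is 1 library's log2 CPM minus the mean of its group, for Fos, Jun and the 8 genes, with the marker showing the title token. The points of token 7_11 lie above 0 for Fos and Jun in 6 of 6 groups, and below 0 for Egr3 and Nab2.

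Per kilobase of annotated exon, Egr1 was the most abundant of the 8 genes in each of the 6 groups, from 27.9 ± 10.9 CPM per kb in WT NKT1 to 75.8 ± 34.4 CPM per kb in SKG NKT2 (mean ± SD, n = 3 here and throughout). Nab2, Nab1, Egr2 and, outside NKT1, Nr4a1 followed at lower levels. In WT NKT2, for example, Nab2 stood at 38.0 ± 14.3, Nr4a1 at 21.4 ± 11.0, Egr2 at 20.7 ± 4.95 and Nab1 at 12.6 ± 4.00 CPM per kb. Egr3 stayed between 1.15 ± 0.480 and 3.79 ± 1.02 CPM per kb. Nr4a2 and Nr4a3 were close to the limit of detection, with group means of at most 0.365 ± 0.108 and 0.446 ± 0.482 CPM per kb.

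**Figure D2:**
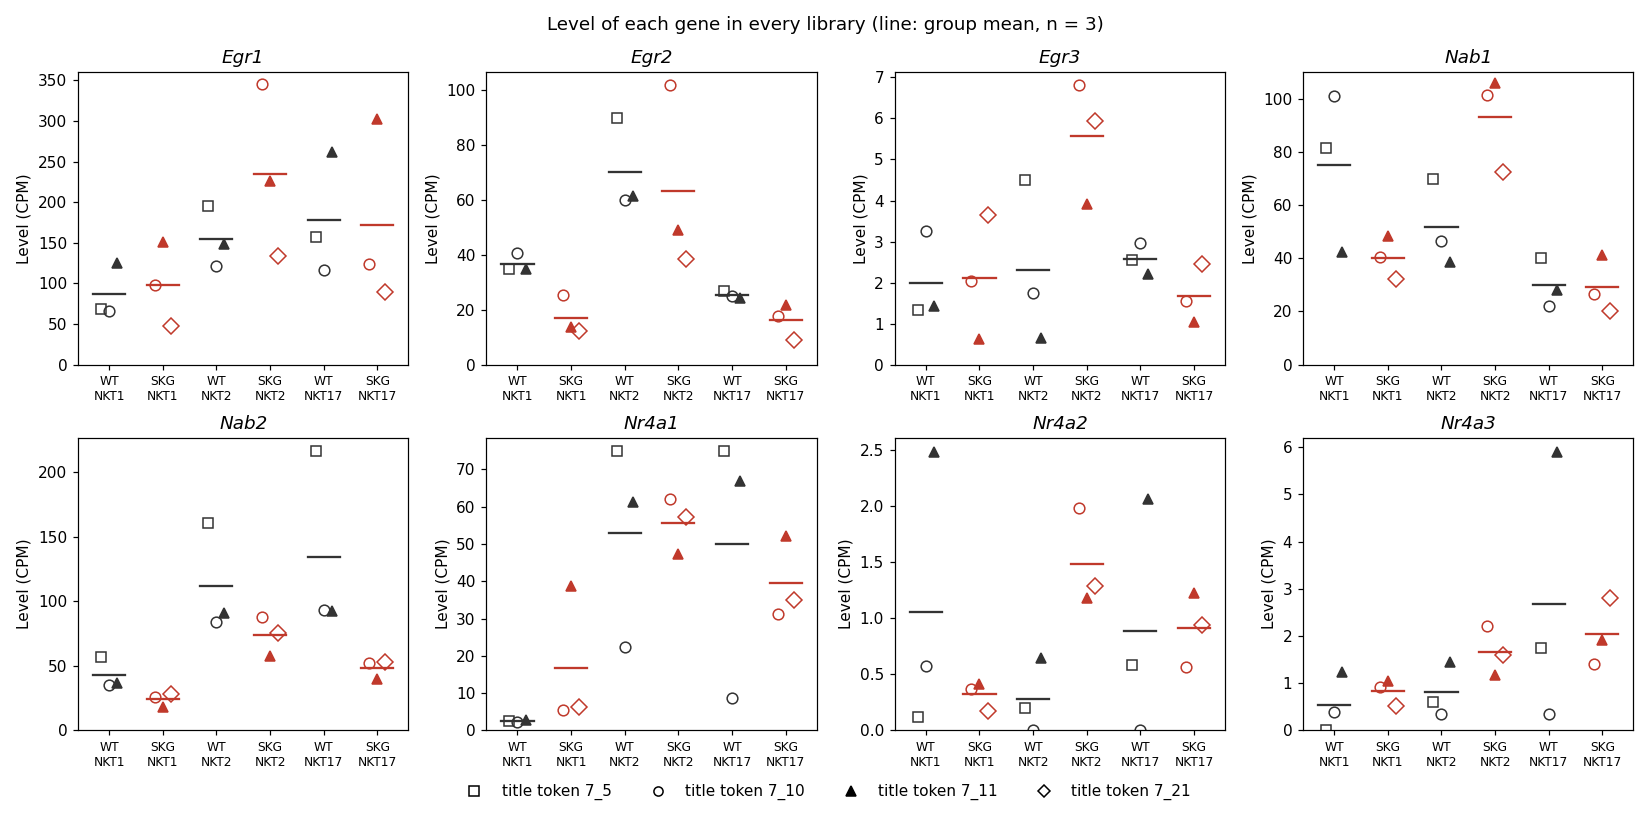
Level in CPM of each of the 8 genes in every library, with a line at the group mean (n = 3), WT in black and SKG in red, and the marker showing the title token. Nr4a1 is near 0 in the 3 WT NKT1 libraries, Egr2 is highest in both NKT2 groups, and the 3 SKG NKT17 libraries lie below the 3 WT NKT17 libraries for Nab2.

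How the weaker Zap70 signal goes with these genes was examined first, by comparing SKG with WT within each subset. A call required 2 things of a gene in the quasi-likelihood fit of edgeR: a p under 0.1 after Benjamini-Hochberg adjustment over all 11118 genes, and a fold change of 1.5 or more. In NKT1, 0 of the 8 genes were called, where 3.27% of all tested genes were, and 4 had an unadjusted p under 0.05. DESeq2, run as an alternative, called 3 of them in this comparison, Egr2 and Nab1 lower and Nr4a1 higher in SKG. In NKT2, 0 of 8 were called (7.95% of all tested genes), with 1 at an unadjusted p under 0.05 and 1, Nab1, called by DESeq2. In NKT17, 1 of 8 was called (8.37% of all tested genes), and this was Nab2, which was lower in SKG. The 8 genes had a median log2 fold change of -0.36 for NKT1, 0.73 for NKT2 and -0.38 for NKT17, beside -0.01, 0.00 and 0.01 for all tested genes. The libraries of SKG and WT did not overlap for 16.3% of all tested genes in NKT1, 30.1% in NKT2 and 26.9% in NKT17, against which each separation named below is to be read. With 3 libraries a group, intervals were wide. The 95% confidence interval of a log2 fold change spanned -0.59 to 1.79 for Egr1 and -1.54 to 1.69 for Nr4a1 in NKT2, so that these data leave a wide range of differences possible for Nr4a1.

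**Figure D3:**
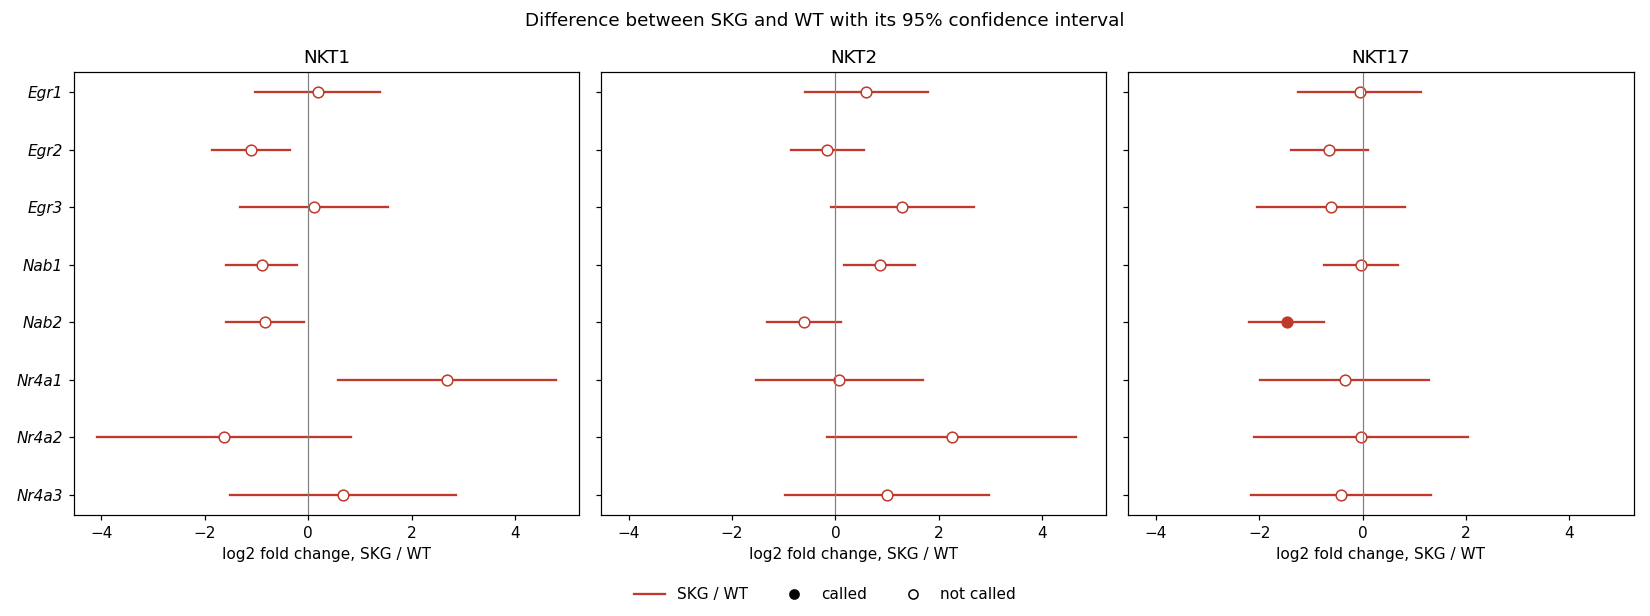
Log2 fold change of SKG over WT for each gene, in NKT1, NKT2 and NKT17, with its 95% confidence interval. Filled points are called genes, of which there is 1, Nab2 in NKT17 at -1.47.

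The subsets were compared within each genotype. In WT, 3 of 8 genes differed between NKT1 and NKT2 (27.5% of all tested genes were called), all 3 lower in NKT1: Egr2, Nab2 and Nr4a1. Between NKT1 and NKT17 in WT, 4 of 8 were called (24.7%), with Nab1 higher and Nab2, Nr4a1 and Nr4a3 lower in NKT1. Between NKT17 and NKT2 in WT, 1 of 8 was called (20.0%), Egr2, which was lower in NKT17. In SKG, 3 of 8 were lower in NKT1 than in NKT2 (18.7%), namely Egr2, Nab1 and Nab2. Between NKT1 and NKT17 in SKG only Nab2 was called (22.8%), lower in NKT1. Between NKT17 and NKT2 in SKG, 3 of 8 were called (18.8%), Egr2, Egr3 and Nab1, all lower in NKT17. DESeq2 called 3, 4 and 2 genes in the WT comparisons and 5, 1 and 3 in the SKG comparisons, in the same order. The libraries compared did not overlap for 41.6%, 34.1% and 37.2% of all tested genes in WT. In SKG they did not overlap for 38.9%, 42.6% and 40.3%, again in this order. Each separation between subsets named below is to be read against these shares.

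**Figure D4:**
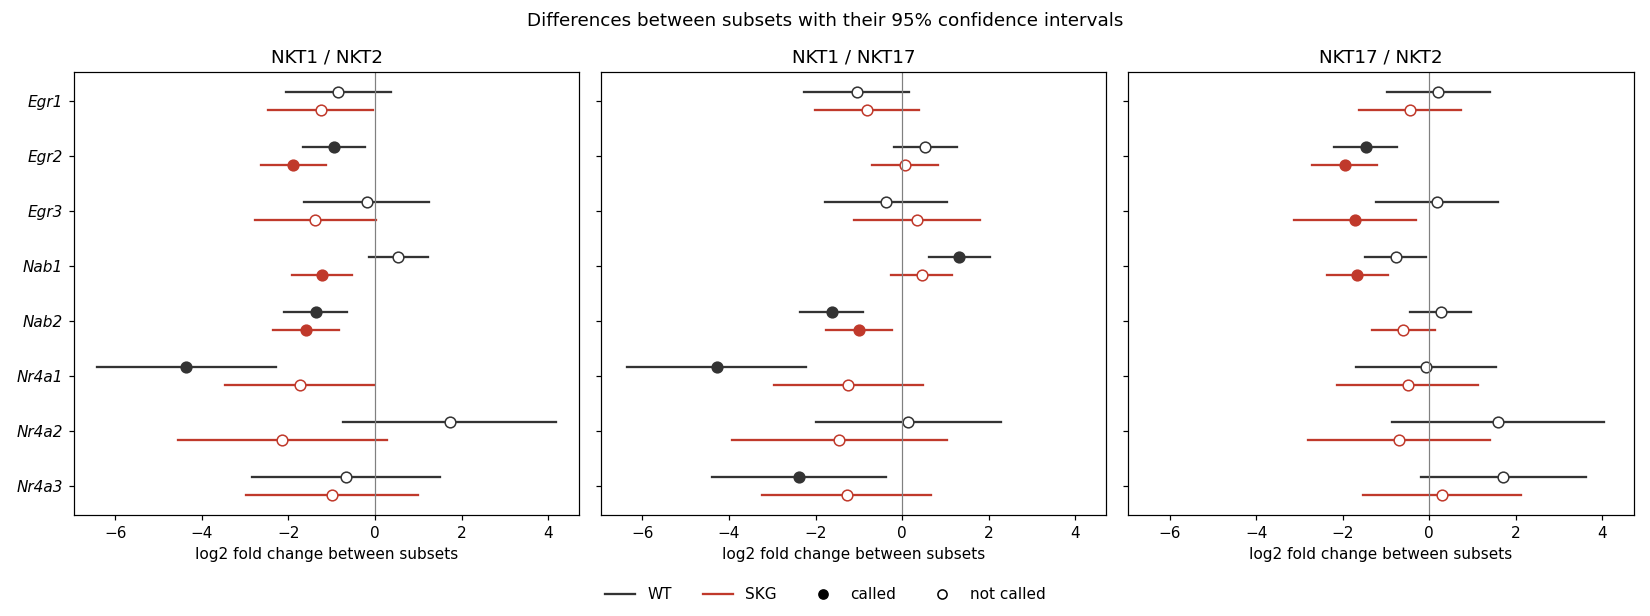
Log2 fold changes between subsets for each gene in WT (black) and SKG (red), with 95% confidence intervals and filled points for called genes. Negative values mean a lower level in the subset named first. Nr4a1 in WT NKT1 lies at -4.36 against NKT2 and -4.28 against NKT17, with intervals that end well below 0.

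Whether the SKG difference itself varied between subsets was tested by interaction. Of the 8 genes, 1 was called for NKT2 against NKT1 (3.87% of all tested genes), which was Nab1, 0 for NKT17 against NKT1 (4.17%), and 0 for NKT17 against NKT2 (2.19%). Unadjusted p-values under 0.05 were found for 2 genes in the first of these (Nab1 and Nr4a2), 1 in the second (Nr4a1) and 0 in the last. For Nr4a2, which had few counts, the difference in the first was 3.87 (SE 1.66, edgeR adjusted p 0.279) and was not called. DESeq2 called Nab1 in the first, Nr4a1 in the second and 0 in the last.

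Egr1, the family member widely used as a marker of recent stimulation, varied widely between libraries of a group. In NKT1 it was at 68.0, 65.7 and 125 CPM in WT replicates 1 to 3 and at 97.9, 150.4 and 47.0 CPM in the SKG replicates. In NKT2 the levels were 195, 121 and 149 CPM in WT and 346, 226 and 133 CPM in SKG. In NKT17 they were 157, 117 and 262 CPM in WT and 123, 302 and 89.7 CPM in SKG. WT and SKG libraries overlapped in all 3 subsets, and Egr1 was called in none of the 12 comparisons in the edgeR fit of all 18 libraries without the token. It was called for NKT1 against NKT2 in WT when only the libraries compared were fitted (log2 fold change -0.85, edgeR adjusted p 0.0796). Group means ran from SKG NKT2 (235 ± 106 CPM) down to WT NKT1 (86.4 ± 33.8 CPM), and each group overlapped the next in that order. Within tokens 7_10 and 7_11, the SKG library was above the WT library of the same token and subset in 6 of 6 pairs, by as little as 123 against 117 CPM and as much as 346 against 121 CPM. These pairs come from only these tokens and are not independent replicates. Fos was likewise higher in SKG in 6 of 6 pairs and Jun in 5 of 6, and the share of all genes was not computed. The SKG libraries of token 7_21 had the lowest Egr1 of their group in 3 of 3 subsets. The Egr1 difference between NKT1 and NKT2 in SKG (log2 fold change -1.26 with SE 0.56, adjusted p 0.144 by edgeR) was not called. It was called without the 6 libraries of token 7_11 (edgeR adjusted p 0.0849) and by DESeq2 (adjusted p 0.0871). It was also called without SKG NKT1 replicate 2 and with the token as a block (edgeR adjusted p 0.0108). Egr1 (chromosome 18, 35020861 to 35024638 on NCBIM37) overlaps Gm17507 on the opposite strand, and without strand information their reads cannot be told apart.

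Egr2, the family member known for its role in iNKT cells, was highest in NKT2 in both genotypes. The WT libraries had 89.7, 59.9 and 61.3 CPM in NKT2, 34.9, 40.5 and 34.7 CPM in NKT1 and 26.9, 25.0 and 24.3 CPM in NKT17. These 3 WT groups did not overlap, a separation to be read against the 34.1% to 41.6% of all tested genes given above. The SKG libraries had 102, 48.9 and 38.5 CPM in NKT2, 25.3, 13.5 and 12.1 CPM in NKT1 and 17.8, 21.8 and 9.01 CPM in NKT17. In SKG the NKT2 libraries were again above all others, while NKT1 and NKT17 overlapped. Egr2 was lower in NKT17 than in NKT2 in WT (log2 fold change -1.47 with SE 0.35, adjusted p 0.00422 by edgeR) and in SKG (log2 fold change -1.95 with SE 0.36, adjusted p 0.000479 by edgeR). It was lower in NKT1 than in NKT2 in SKG (log2 fold change -1.89 with SE 0.36, adjusted p 0.000706 by edgeR). The smaller difference between NKT1 and NKT2 in WT (log2 fold change -0.94 with SE 0.34, adjusted p 0.0425 by edgeR) lost its call without WT NKT1 replicate 1 (adjusted p 0.114), without WT NKT2 replicate 1 (adjusted p 0.149) and without the libraries of token 7_11 (adjusted p 0.158). In bulk samples, fewer cells with a transcript and less of it per cell cannot be told apart.

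Between genotypes, Egr2 in NKT1 averaged 17.0 ± 7.21 CPM in SKG and 36.7 ± 3.28 CPM in WT. All 3 SKG libraries were below all 3 WT libraries, as in the 16.3% of genes given above, but the difference did not pass the test (log2 fold change -1.11 with SE 0.36, adjusted p 0.123 by edgeR, 95% interval -1.86 to -0.36). It was called by DESeq2 (adjusted p 0.0318) and without SKG NKT1 replicate 1 (adjusted p 0.0527 by edgeR). Within tokens, Egr2 in NKT1 was 25.3 CPM in SKG against 40.5 CPM in WT for 7_10, and 13.5 against 34.7 CPM for 7_11. In NKT17 the 3 SKG libraries were also below the 3 WT libraries, with a log2 fold change of -0.64 (SE 0.36) that was not called (edgeR adjusted p 0.324). In NKT2 the genotypes overlapped (log2 fold change -0.16, 95% interval -0.86 to 0.55). The difference of the SKG effect between NKT2 and NKT1 was 0.95 (SE 0.49, edgeR adjusted p 0.403), which was not called. Egr2 lies on chromosome 10, 66998223 to 67004936 on NCBIM37, and no other annotated gene overlaps it.

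Egr3, which shares targets with Egr2, was counted at only 3 to 37 reads per library. In NKT2 the SKG libraries were at 6.83, 3.92 and 5.94 CPM and the WT libraries at 4.50, 1.75 and 0.647 CPM. In NKT17 they were at 1.56, 1.05 and 2.44 CPM in SKG and 2.54, 2.96 and 2.20 CPM in WT, and in NKT1 at 2.04, 0.625 and 3.64 CPM and 1.33, 3.25 and 1.42 CPM. SKG NKT2 was the highest group and did not overlap the next, WT NKT17. The share of all tested genes that separate between these groups was not computed. In SKG, Egr3 was lower in NKT17 than in NKT2 (log2 fold change -1.72 with SE 0.68, adjusted p 0.0773 by edgeR). This call was lost in 4 of 6 fits that left out 1 of the libraries compared, with adjusted p-values up to 0.213, and without the libraries of token 7_11 (adjusted p 0.148). The difference between SKG and WT in NKT2 was not called (log2 fold change 1.29 with SE 0.67, adjusted p 0.280 by edgeR), although the SKG library was higher in both same-token pairs, at 6.83 against 1.75 CPM and 3.92 against 0.65 CPM. Without WT NKT2 replicate 1, which had the highest WT level, it was called (2.20, edgeR adjusted p 0.0991).

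Of the corepressors, Nab2 gave the only called difference between SKG and WT. In NKT17 it was at 52.4, 40.1 and 52.7 CPM in SKG and 216, 93.6 and 92.5 CPM in WT. The 2 sets of libraries did not overlap, and the level fell by 1.47 on the log2 scale in SKG (log2 fold change -1.47 with SE 0.34, adjusted p 0.0130 by edgeR, 95% interval -2.19 to -0.74). The call was kept in all 14 alternatives, with log2 fold changes from -1.66 to -0.95, the smallest without WT NKT17 replicate 1, which had the highest level. Within tokens the levels were 52.4 against 93.6 CPM for 7_10 and 40.1 against 92.5 CPM for 7_11, in SKG and WT. In NKT1, Nab2 was at 26.0, 18.5 and 28.1 CPM in SKG and 57.0, 35.3 and 36.7 CPM in WT, again without overlap, and was not called (log2 fold change -0.83 with SE 0.35, adjusted p 0.304 by edgeR). In NKT2 it was at 87.4, 57.8 and 75.3 CPM in SKG and 160.2, 84.1 and 90.9 CPM in WT, where the groups overlapped (log2 fold change -0.60 with SE 0.33, adjusted p 0.338 by edgeR). No difference among the 3 SKG effects was called (edgeR adjusted p 0.905 for NKT2 minus NKT1, 0.624 for NKT17 minus NKT1 and 0.563 for NKT17 minus NKT2) in the fit that took no account of the token.

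Nab2 was also lowest in NKT1 within each genotype. In WT it was lower in NKT1 than in NKT2 (log2 fold change -1.37 with SE 0.34, adjusted p 0.00610 by edgeR) and than in NKT17 (log2 fold change -1.63 with SE 0.34, adjusted p 0.00180 by edgeR). In SKG it was lower in NKT1 than in NKT2 (log2 fold change -1.60 with SE 0.35, adjusted p 0.00404 by edgeR). The call against NKT17 in SKG (log2 fold change -0.996 with SE 0.35, adjusted p 0.05002 by edgeR) was lost in 4 of 6 fits that left out 1 of the libraries compared, with adjusted p-values up to 0.161, and without the libraries of token 7_11 (adjusted p 0.171). The highest WT library was the one of token 7_5 in 3 of 3 subsets. Nab2 lies on chromosome 10, 127097974 to 127105624 on NCBIM37, minus strand, and overlaps Stat6 (by 40 bases), Gm16229 and Tmem194 on the other strand. The counting is not stated to use strand, so reads in these overlaps may be left out as ambiguous or counted with Nab2, depending on the annotation used.

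For Nab1, the difference between SKG and WT was not the same in NKT1 and NKT2. In NKT1 the levels were 40.3, 48.3 and 32.1 CPM in SKG and 81.5, 101 and 42.3 CPM in WT, and the lowest WT library lay within the SKG range. In NKT2 they were 101, 106 and 72.4 CPM in SKG and 69.9, 46.5 and 38.5 CPM in WT, without overlap. In NKT17 the values were 26.5, 41.2 and 20.3 CPM and 40.0, 22.1 and 28.0 CPM, which overlapped. The log2 fold change of SKG over WT was -0.90 (SE 0.33) in NKT1 and 0.85 (SE 0.32) in NKT2, and neither was called (edgeR adjusted p 0.197 and 0.130). The difference between these effects was called (log2 fold change 1.75 with SE 0.46, adjusted p 0.0516 by edgeR, 95% interval 0.78 to 2.73). It lost its call in 8 of 12 fits that left out 1 library, with log2 fold changes of 1.48 to 1.76 and adjusted p-values of 0.111 to 0.132 in those 8 fits, and kept it without the libraries of token 7_11 (adjusted p 0.0246). Within tokens, Nab1 in NKT2 was higher in SKG for 7_10 (101 against 46.5 CPM) and for 7_11 (106 against 38.5 CPM). In NKT1 it was lower in SKG for 7_10 (40.3 against 101 CPM) and higher for 7_11 (48.3 against 42.3 CPM), so the NKT1 side differed between tokens. Without the libraries of token 7_11, Nab1 was called lower in SKG NKT1 (log2 fold change -1.32, edgeR adjusted p 0.0321).

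The order of subsets for Nab1 was not the same in WT and SKG. In WT, NKT1 had the highest mean (74.9 ± 29.9 CPM), and it was higher than NKT17 (log2 fold change 1.32 with SE 0.33, adjusted p 0.00554 by edgeR) but overlapped NKT2 (log2 fold change 0.54 with SE 0.32, adjusted p 0.224 by edgeR). In SKG, NKT2 had the highest mean (93.2 ± 18.2 CPM), above NKT1 (log2 fold change -1.21 for NKT1 over NKT2, SE 0.33, edgeR adjusted p 0.0128) and NKT17 (-1.67 for NKT17 over NKT2, SE 0.33, edgeR adjusted p 0.00126). Between NKT17 and NKT2 in WT, Nab1 was not called in the main fit (log2 fold change -0.78, edgeR adjusted p 0.107). It was called lower in NKT17 in 8 of 14 alternatives. Among these were DESeq2 (adjusted p 0.0433), upper-quartile scaling (edgeR adjusted p 0.0711) and the fit without the libraries of token 7_11. Same-token libraries deviated together in this comparison, and with the token as a block Nab1 was also called (edgeR adjusted p 0.0338). Nab1 lies on chromosome 1, 52514138 to 52557523 on NCBIM37, minus strand, with no overlapping gene.

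Nr4a1, the gene used to report TCR signals, ran from a group mean of 2.55 ± 0.272 CPM in WT NKT1 to 55.5 ± 7.50 CPM in SKG NKT2. In WT NKT1 it was at 2.54, 2.29 and 2.83 CPM (21, 12 and 16 counts). In WT NKT2 it was at 74.8, 22.4 and 61.3 CPM, and in WT NKT17 at 74.8, 8.69 and 66.8 CPM. All WT NKT1 libraries were thus below all other WT libraries. In WT, 41.6% of all tested genes separated between NKT1 and NKT2, and 34.1% between NKT1 and NKT17. The level in NKT1 was 20.5-fold lower than in NKT2 (log2 fold change -4.36 with SE 0.95, adjusted p 0.00354 by edgeR) and 19.5-fold lower than in NKT17 (log2 fold change -4.28 with SE 0.95, adjusted p 0.00408 by edgeR), with 95% intervals of -6.43 to -2.28 and -6.35 to -2.21. Both calls were kept in every alternative tried, including the fits without 1 library and without the libraries of token 7_11. Between NKT17 and NKT2 no difference was detected (log2 fold change -0.07 with SE 0.75, adjusted p 0.961 by edgeR), but libraries spread from 8.69 to 74.8 CPM within WT NKT17, and the interval of -1.69 to 1.54 allows large ones.

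In SKG the NKT1 libraries had 5.57, 38.7 and 6.24 CPM, all above the 3 WT NKT1 libraries, with the highest value in the library of token 7_11. The log2 fold change against WT was 2.69 (SE 0.97, edgeR adjusted p 0.215) and was not called. It was 1.20 without that library, and DESeq2 called it with all libraries (adjusted p 0.0210). Within tokens Nr4a1 in NKT1 was 5.57 against 2.29 CPM for 7_10 and 38.7 against 2.83 CPM for 7_11, in SKG and WT. The other SKG groups had 62.1, 47.4 and 57.2 CPM in NKT2 and 31.2, 52.0 and 35.1 CPM in NKT17, which overlapped the WT libraries of the same subset. In SKG the difference between NKT1 and NKT2 was not called (log2 fold change -1.74 with SE 0.79, adjusted p 0.157 by edgeR). It was called without SKG NKT1 replicate 2 (-3.23, edgeR adjusted p 0.0137) and by DESeq2 with all libraries (adjusted p 0.0954). It was also called with the token as a block and without the libraries of token 7_11. Against NKT17 in SKG the log2 fold change was -1.24 with all libraries (edgeR adjusted p 0.297), not called. That difference was called without SKG NKT1 replicate 2 (-2.73, edgeR adjusted p 0.0252) and with the token as a block. The SKG effect in NKT17 minus that in NKT1 was -3.04 (SE 1.23, edgeR adjusted p 0.261). It was -1.55 without SKG NKT1 replicate 2 (edgeR adjusted p 0.605), -1.60 without the libraries of token 7_11, and called without WT NKT17 replicate 2 (-3.56, edgeR adjusted p 0.0889). Nr4a1 lies on chromosome 15, 101097277 to 101105223 on NCBIM37, with no overlapping gene.

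Nr4a2 and Nr4a3 were counted at 0 to 15 and 0 to 43 reads per library. Nr4a2 had 1, 3 and 14 counts in WT NKT1, 1, 0 and 4 counts in WT NKT2 and 3, 0 and 15 counts in WT NKT17. In SKG it had 2, 2 and 1 counts in NKT1, 9, 6 and 8 counts in NKT2 and 4, 7 and 5 counts in NKT17. All 3 SKG NKT2 libraries were above the 3 WT NKT2 libraries, and the difference was not called (log2 fold change 2.25 with SE 1.16, adjusted p 0.282 by edgeR). Libraries were separate for 30.1% of all genes in this comparison, and the log2 fold change was 3.68 without WT NKT2 replicate 3 (edgeR adjusted p 0.223). A count of 0 allows up to 3 counts by counting error, which is 0.524 and 0.522 CPM in the WT NKT2 and WT NKT17 libraries without a Nr4a2 read, and 0.362 CPM in the WT NKT1 library without a Nr4a3 read. Nr4a3 had 0, 2 and 7 counts in WT NKT1, 3, 2 and 9 counts in WT NKT2 and 9, 2 and 43 counts in WT NKT17, with the highest count in the token 7_11 library of each. In SKG it had 5, 5 and 3 counts in NKT1, 10, 6 and 10 counts in NKT2 and 10, 11 and 15 counts in NKT17. The call of Nr4a3 between NKT1 and NKT17 in WT (log2 fold change -2.38 with SE 0.97, adjusted p 0.0716 by edgeR) rests on few counts in overlapping groups. Without WT NKT17 replicate 3 the log2 fold change was -1.01 (adjusted p 0.565), without WT NKT1 replicate 1 -1.73 (adjusted p 0.211), without WT NKT1 replicate 2 -2.24 (adjusted p 0.151), without WT NKT1 replicate 3 -3.96 (adjusted p 0.0193) and without the libraries of token 7_11 -2.56 (adjusted p 0.225). After the group means were taken out, Nr4a2 and Nr4a3 had a Pearson correlation of 0.97 across the 18 libraries, which share depth and tokens, and Egr1 had 0.58 with Nr4a1 and 0.61 with Nr4a2.

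The genes around the family were read from lists of known roles. Their counts are to be read against the shares of all tested genes called, which were 3.27%, 7.95% and 8.37% for SKG against WT in NKT1, NKT2 and NKT17, and in WT 27.5% for NKT1 against NKT2, 24.7% for NKT1 against NKT17 and 20.0% for NKT17 against NKT2. Of 26 genes that act upstream of Egr and Nr4a in T cells (RAS, ERK, serum response factor, NFAT, calcineurin, MEF2 and CREB components), 25 were tested. In SKG against WT, 1 was higher and 1 lower in NKT1, 2 higher and 2 lower in NKT2, and 0 higher and 2 lower in NKT17, the last of these close to the share of all genes. Crem, which encodes a repressor and activator isoforms of the CREB family, fell in NKT1 from 89.0 ± 17.2 CPM in WT to 34.4 ± 8.50 CPM in SKG (log2 fold change -1.37 with SE 0.24, adjusted p 0.00243 by edgeR). Its mean was also lower in SKG in NKT2 (32.6 against 90.1 CPM) and NKT17 (37.7 against 68.1 CPM). Nfatc1, a calcium-regulated factor that drives Egr2 and Egr3, fell in NKT2 from 417 ± 43.0 CPM to 222 ± 37.1 CPM (log2 fold change -0.91 with SE 0.14, adjusted p 0.000170 by edgeR) and in NKT17 from 268 ± 45.3 CPM to 174 ± 27.6 CPM (log2 fold change -0.62 with SE 0.14, adjusted p 0.00627 by edgeR). Between WT subsets, 5 of 25 differed for NKT1 against NKT2, where 27.5% of all genes did, with Elk3, a partner of serum response factor, lower in NKT1 (log2 fold change -1.07 with SE 0.16, adjusted p 1.55e-05 by edgeR). For NKT1 against NKT17 there were 7 of 25 (24.7% of all genes), and for NKT17 against NKT2 6 of 25 (20.0%), and in both the lead was Cabin1, a calcineurin and MEF2 inhibitor that was highest in NKT17 (266 ± 47.5 CPM) against 69.5 ± 1.63 CPM in NKT1 and 61.0 ± 6.69 CPM in NKT2. The log2 fold change of Cabin1 was -1.94 for NKT1 over NKT17 (SE 0.13, edgeR adjusted p 6.17e-11) and 2.13 for NKT17 over NKT2 (SE 0.13, edgeR adjusted p 3.01e-11).

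Of 30 other immediate early genes, 27 were tested, and in SKG 1 was higher and 1 lower in NKT1, 6 higher and 3 lower in NKT2, and 2 higher and 3 lower in NKT17. Over all tested genes 3.27%, 7.95% and 8.37% were called in these comparisons. The list's median log2 fold change in NKT2 was 0.65, beside 0.00 for all tested genes, and 0.08 and 0.10 in NKT1 and NKT17. The smallest adjusted p in each subset was that of Spry2, an inhibitor of receptor-driven RAS and ERK signals. It fell from 472 ± 128 CPM in WT to 78.1 ± 20.0 CPM in SKG in NKT1 (log2 fold change -2.59 with SE 0.30, adjusted p 0.000124 by edgeR), from 49.4 ± 6.14 CPM to 2.24 ± 0.869 CPM in NKT2 (log2 fold change -4.41 with SE 0.41, adjusted p 2.82e-06 by edgeR), and from 27.9 ± 14.5 CPM to 1.61 ± 0.0724 CPM in NKT17 (log2 fold change -4.12 with SE 0.43, adjusted p 1.11e-05 by edgeR). Between WT subsets, 14 genes of the list had higher and 2 had lower levels in NKT1 than in NKT2, led by Cd69, an early activation marker at the cell surface (log2 fold change 3.51 with SE 0.24, adjusted p 6.32e-10 by edgeR). Egr2, Nab2 and Nr4a1 were lower in NKT1 in the same comparison. Against NKT17, 8 were higher and 4 lower in NKT1, and 11 were higher and 4 lower in NKT17 than in NKT2, both led by Zfp36l1, which encodes a protein that promotes mRNA decay (log2 fold change -1.48 with SE 0.11, adjusted p 4.51e-10 by edgeR, and log2 fold change 1.18 with SE 0.11, adjusted p 2.93e-08 by edgeR). The list's sum moved with token 7_11, as given above. Of 8 heat shock genes, which respond to cell handling, 0 were called by edgeR between SKG and WT in any subset. Unadjusted p-values under 0.05 were found for 0, 2 and 2 of them in NKT1, NKT2 and NKT17, and DESeq2 called 0. Their summed level also moved with the token, highest in the 7_11 library in the 3 SKG groups and in the 7_5 library in the 3 WT groups. The SKG 7_11 libraries had 5230.5, 4773 and 5009.8 CPM in NKT1, NKT2 and NKT17, and the other SKG libraries 2588 to 3809 CPM. The part of cell handling in these results was not tested.

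The partners of these proteins were read in the same way. Of 6 genes for CHD and MBD3 proteins, which Nab recruits, and for RXR receptors, which pair with Nr4a1 and Nr4a2, 5 were tested, and edgeR called 0 between SKG and WT in any subset. Unadjusted p-values under 0.05 were found for 0, 1 and 1 of them in NKT1, NKT2 and NKT17, and DESeq2 called 0, 0 and 1. In WT, Mbd3 was lower in NKT1 than in NKT2 (log2 fold change -0.79 with SE 0.21, adjusted p 0.00612 by edgeR). Rxra led the other subset comparisons, with means of 19.7 ± 1.99 CPM for NKT2, 12.1 ± 2.32 CPM for NKT1 and 5.85 ± 0.614 CPM for NKT17 (log2 fold change 1.04 with SE 0.33, adjusted p 0.0186 by edgeR for NKT1 over NKT17, and log2 fold change -1.75 with SE 0.33, adjusted p 0.000293 by edgeR for NKT17 over NKT2).

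Genes described as targets of these factors were examined next. All 14 Egr2 and Egr3 targets on the list were tested, and 0 were higher and 5 lower in SKG NKT1, 1 higher and 5 lower in SKG NKT2, and 1 higher and 4 lower in SKG NKT17 (3.27%, 7.95% and 8.37% of all tested genes). The list medians of -0.41, -0.11 and -0.38 stand beside -0.01, 0.00 and 0.01 for all tested genes. Lag3, a coinhibitory receptor gene on this list, had 0 counts in SKG NKT1, and its fitted fold change there depends on the fit. Tnfrsf9, which encodes the costimulatory receptor 4-1BB, fell in NKT1 from 42.9 ± 15.3 CPM to 8.89 ± 2.92 CPM (log2 fold change -2.27 with SE 0.30, adjusted p 8.69e-05 by edgeR). Its mean was also lower in SKG in NKT2 (19.6 against 52.5 CPM) and NKT17 (3.71 against 5.39 CPM). Id3, an inhibitor of E proteins, fell in NKT17 from 274 ± 98.9 CPM to 17.8 ± 1.66 CPM (log2 fold change -3.94 with SE 0.26, adjusted p 4.30e-08 by edgeR). Its mean was also lower in SKG in NKT1 (6.04 against 24.3 CPM) and NKT2 (79.9 against 494 CPM). Fasl, the ligand of the death receptor Fas, went the other way in NKT2, from 13.9 ± 3.39 CPM to 94.2 ± 24.6 CPM (log2 fold change 2.75 with SE 0.19, adjusted p 2.69e-09 by edgeR). Its mean in SKG was also higher in NKT17 (10.7 against 2.36 CPM) and lower in NKT1 (435 against 556 CPM). Between WT subsets 12, 11 and 7 of the 14 targets differed, where 27.5%, 24.7% and 20.0% of all tested genes did. The lead genes were Il2rb, a cytokine receptor chain, higher in NKT1 than in NKT2 (log2 fold change 3.53 with SE 0.12, adjusted p 1.67e-15 by edgeR), Fasl, higher in NKT1 than in NKT17 (log2 fold change 7.86 with SE 0.24, adjusted p 2.87e-16 by edgeR), and Tnfrsf9, lower in NKT17 than in NKT2 (log2 fold change -3.29 with SE 0.31, adjusted p 3.00e-08 by edgeR). Il2rb is also an NKT1 marker and Zbtb16 an NKT2 marker, so these targets are not independent of the subset labels.

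Of 8 genes described as Nr4a targets, 6 were tested, and none of the 6 was called higher in SKG. In SKG 3 were lower in NKT1, 4 in NKT2 and 3 in NKT17, where 3.27%, 7.95% and 8.37% of all tested genes were called. The list medians were -0.49, -0.82 and -0.77, beside -0.01, 0.00 and 0.01 for all tested genes. Pdcd1, the gene of the inhibitory receptor PD-1, had the smallest adjusted p in each subset and fell in all 3. The values were log2 fold change -2.88 with SE 0.25, adjusted p 7.79e-06 by edgeR in NKT1, log2 fold change -2.66 with SE 0.24, adjusted p 1.15e-06 by edgeR in NKT2 and log2 fold change -3.38 with SE 0.24, adjusted p 1.30e-07 by edgeR in NKT17. In WT cells its mean was 127 ± 11.1 CPM for NKT1, 584 ± 78.2 CPM for NKT2 and 829 ± 163 CPM for NKT17, so that in WT Pdcd1, like Nr4a1, was lowest in NKT1. In SKG, Pdcd1 was at 17.1 ± 8.61 CPM, 92.1 ± 7.50 CPM and 79.5 ± 4.50 CPM, while Nr4a1 was not called lower in any subset. Between WT subsets, 5, 5 and 4 of the 6 differed (27.5%, 24.7% and 20.0% of all tested genes), led by Tox (log2 fold change -2.80 with SE 0.20, adjusted p 4.37e-10 by edgeR), Entpd1 (log2 fold change 2.91 with SE 0.24, adjusted p 3.55e-09 by edgeR) and Ikzf3 (log2 fold change 1.64 with SE 0.16, adjusted p 1.19e-07 by edgeR), in the order NKT1 over NKT2, NKT1 over NKT17 and NKT17 over NKT2.

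**Figure D5:**
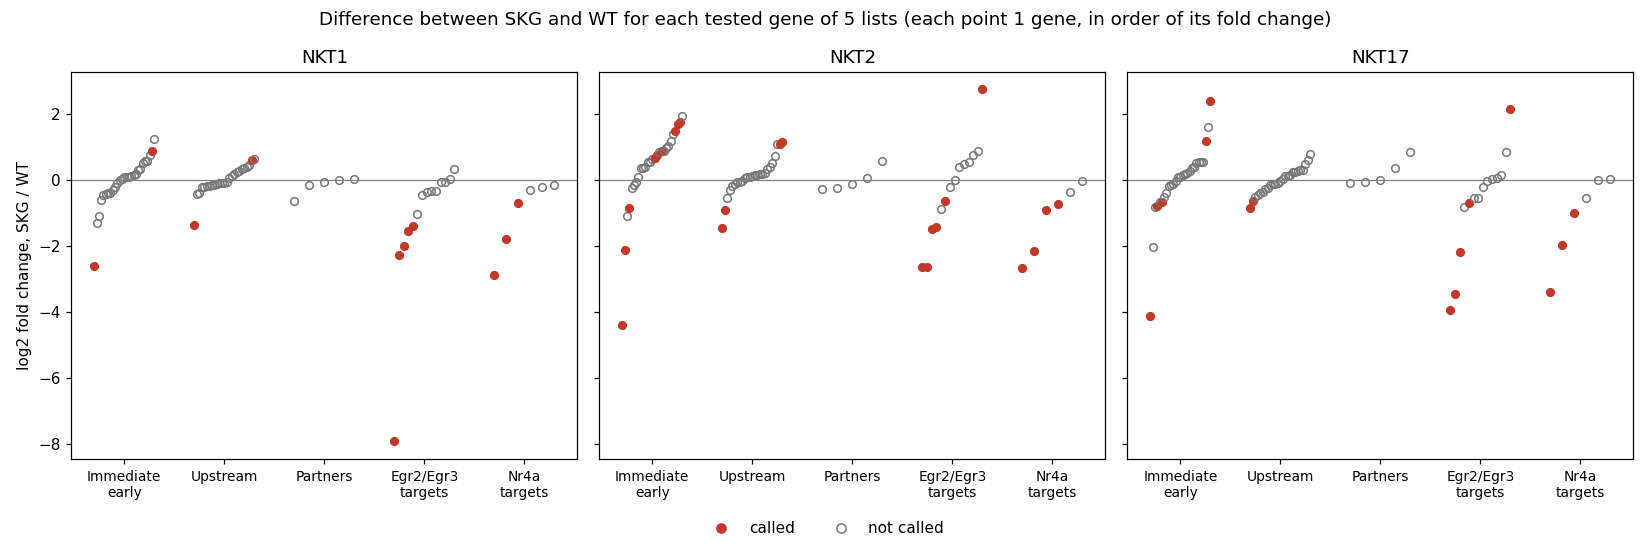
Log2 fold change of SKG over WT in each subset for every tested gene of 5 lists, with red points for called genes and genes in order of fold change within a list. The Nr4a targets that were called are all below 0, and the point near -8 in NKT1 is Lag3, which had 0 counts in the SKG NKT1 libraries so that its size depends on the fit.

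The genes whose levels were most like each member across the 18 libraries, by Pearson correlation of log2 CPM among all tested genes, are given as a description. The correlation mixes differences between subsets, genotypes and tokens. For Egr2 they included Hmgn2 (r = 0.89) and Isg15 (0.88), and for Nab2 they were Nipal1 (0.92), Lag3 (0.90) and Id3 (0.90), of which Lag3 and Id3 are on the list of Egr targets. For Nab1 they were Lims1 (0.89), Pip4k2a (0.85) and Satb1 (0.84). For Nr4a1 they were Hook1 (0.89), Ikbkap (0.88) and Bclaf1 (0.87), and for Nr4a3 Lrrc45 (0.87), Tmem181b-ps (0.85) and Ikbkap (0.82). Egr1 was most like AA388235 (0.88), Gm19757 (0.87) and Fbxw7 (0.81), Egr3 most like Tlr12 (0.78), Snapc4 (0.71) and Setbp1 (0.68), and Nr4a2 most like A130077B15Rik (0.85), Armc8 (0.83) and Rps6ka3 (0.80). No other member was among the 3 nearest genes of a member.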

How the data were processed

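RNA-seq of poly-A RNA had been made by the authors with a Smart-seq2 type protocol and Tn5 tagmentation and sequenced as single-end reads. The deposited values are whole-number read counts per gene, not normalised, which the authors made by TopHat alignment and htseq-count in union mode. The paper names build mm9, the submitters' processing notes name mm10 and hg19, with Bowtie 1.0.0, TopHat 1.4.1 and HTSeq 0.7.1, and the annotation and strand setting are not given in the sources used here. The Tn5 kit does not mark strand. Coordinates and exon lengths come from GENCODE M1 (NCBIM37, mm9) and promoters from RefSeq (GRCm38.p6). Libraries were joined to columns by sample title, and 2 further columns of no listed sample were not used.

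The members and gene lists were chosen with earlier results of these data known, so neither is independent support. Genes were filtered with filterByExpr by group (11118 of 15582 kept), scaled by TMM (factors 0.928 to 1.07) and fitted with edgeR 4.0.16 (robust quasi-likelihood, 6 groups, 12 residual degrees of freedom, biological coefficient of variation 21.1%). Tests were two-sided. Calls needed a Benjamini-Hochberg adjusted p under 0.1 and a fold of at least 1.5. SE is the absolute log2 fold change over the square root of F. Libraries of a group differed by more than sampling noise (chi-square per degree of freedom 5.47 to 24.4) and were kept as 3 replicates. Depth was 4391029 to 8895917 counts, without molecular identifiers, so floors and intervals of counts cover counting error only. Named genes were the 8 members in all comparisons, the called gene with the smallest adjusted p of each list (immediate early, upstream, partners, targets) in each SKG against WT and WT subset comparison, and the 3 genes most correlated with each member (log2 CPM, prior count 2). Some genes that these rules pick are not reported here.

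On simulated counts for 11118 genes in SKG against WT NKT1, 154 of 200 genes changed by 1.5 on the log2 scale were called (77%), and 10 unchanged ones. Same-token libraries of WT NKT17 and WT NKT2 had correlated deviations from their group means (r 0.22 to 0.35 over 3 pairs), which is the only comparison where all 3 were over 0.1, and there the token pairs the libraries by the data, not by the labels. In the SKG subset comparisons every same-token r was also above every r between tokens, with same-token values down to 0.051. Alternatives were DESeq2 1.42.0, RLE and upper-quartile scaling, no filter, a filter at 50 counts on average, a stricter adjusted p (0.05), no fold minimum, only the libraries compared, the token as a replicate block, each library left out, and, chosen after seeing the data, all 6 libraries of token 7_11 left out. Promoter windows of Egr1 and Egr3 and protein sequences were not used here.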

Additional observations from a re-analysis of the deposited data

Results flagged for a closer look

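The SKG effect on Nab1 differed between NKT2 and NKT1 by 1.75 on the log2 scale (SE 0.46, 3 libraries a group, edgeR adjusted p 0.0516 for the interaction), with 0.85 in NKT2 and -0.90 in NKT1. It was flagged because the effects of the same mutation in 2 subsets differed by the test of the difference itself. In NKT2 all 3 SKG libraries were above the 3 WT libraries, and in NKT1 SKG libraries overlapped the lowest WT library. The call was lost in 8 of 12 fits without 1 library. No group of 4 or more libraries was available in which a single library could be tested as an outlier.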

How the results depend on the processing

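Of 1452 recalculated log2 fold changes of single genes, 1328 kept their direction and their side of the thresholds, 54 turned sign without a call in either fit, 26 lost a call, 44 gained one and 0 reversed. The counts of called members that changed were as follows, and all others stayed as reported. RLE scaling, no filter and no fold minimum changed none. DESeq2 called 3 genes for SKG against WT in NKT1, 1 in NKT2, 2 for NKT17 against NKT2 in WT, 5 for NKT1 against NKT2 in SKG and 1 for the SKG effect in NKT17 minus NKT1. Upper-quartile scaling called 2 for NKT17 against NKT2 in WT. So did a mean of at least 50 counts, which leaves fewer genes tested and called 3 for NKT1 against NKT17 in WT and 2 for NKT17 against NKT2 in SKG. A fit of only the libraries compared called 1 for SKG against WT in NKT2, 4, 3 and 2 in WT for NKT1 against NKT2, NKT1 against NKT17 and NKT17 against NKT2, and 4 in SKG both for NKT1 against NKT2 and for NKT17 against NKT2. At an adjusted p under 0.05 the count was 3 for NKT1 against NKT17 in WT, 0 for NKT1 against NKT17 in SKG, 2 for NKT17 against NKT2 in SKG and 0 for the SKG effect in NKT2 minus NKT1. Without the libraries of token 7_11 it was 1 for SKG against WT in NKT1, 2, 3 and 2 in WT and 5, 0 and 2 in SKG, for NKT1 against NKT2, NKT1 against NKT17 and NKT17 against NKT2. With the replicate block it was 1 for SKG against WT in NKT1 (Nr4a1) and 1 in NKT2 (Nab1), 4, 5 and 2 in WT and 6, 2 and 4 in SKG in that order, and 1 for the SKG effect in NKT17 minus NKT2 (Nab2, log2 fold change -0.81, edgeR adjusted p 0.0736). The block called Egr1 lower in NKT1 than in NKT2 in WT (edgeR adjusted p 0.0570) and in SKG (0.0108), and than in NKT17 in WT (0.0328). In the SKG subset comparisons, deviations of same-token libraries had r of 0.051 to 0.182 for NKT1 against NKT2 and 0.067 to 0.198 for NKT1 against NKT17. For NKT17 against NKT2 in SKG they had 0.092 to 0.214. Pairs of different tokens reached at most 0.022, 0.011 and 0.046 in that order. In the comparisons other than these and NKT17 against NKT2 in WT, the 2 ranges overlapped, and no pairing is shown. Leaving out 1 library gave counts of 0 to 1 for SKG against WT in NKT1, 0 to 2 in NKT2 and 1 in NKT17. For WT subsets it gave 2 to 4 for NKT1 against NKT2, 3 to 4 for NKT1 against NKT17 and 1 to 2 for NKT17 against NKT2. For SKG subsets it gave 3 to 5, 0 to 1 and 2 to 3 in the same order, and for the SKG effect 0 to 1 for NKT2 minus NKT1, 0 to 1 for NKT17 minus NKT1 and 0 for NKT17 minus NKT2. Upper-quartile scaling moved the median of all genes by -0.10 for NKT1 against NKT2 in WT, the only shift over 0.1, and changed the order of group means of Nr4a3. The causes were not tested. Egr3, Nr4a2 and Nr4a3 were counted at 0 to 43 reads per library, where depth limits what can be seen.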
